A study of Mus musculus with 6 samples.

Results

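The RAS, RAF, MEK and ERK genes described here are 7 members of the core cascade: Hras and Nras, which encode membrane GTPases, Araf and Braf, which encode RAF kinases, Map2k1 and Map2k2, which encode MEK1 and MEK2, and Mapk3, which encodes ERK1. They were taken by symbol from the table of read counts, where each symbol matched 1 Ensembl gene ID, so that 7 of 54532 gene IDs were described. All 7 passed the filter on low counts, with 1223 to 5988 reads per library. The libraries came from subcutaneous tumours of G422, a mouse glioblastoma cell line, inoculated into Kunming mice, an outbred stock. Before inoculation the cells had been given a lentivirus, which in 3 tumours was labelled shNgb, after a hairpin against Ngb, the gene of the oxygen-binding protein neuroglobin, and in 3 tumours shVec, after its vector control. The labels list no further treatment and no age, and they do not tie tumours to mice, so the tests see the spread over these tumours, which may be technical. The design text speaks of Ngb and not of a hairpin, and the groups are called here by their sample labels.

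In this cascade, growth factor receptors load RAS proteins with GTP, and GTP-bound RAS recruits RAF kinases to the membrane. RAF phosphorylates MEK1 and MEK2, which have ERK1 and ERK2 as their main substrates, and ERK acts on many proteins in the cytoplasm and the nucleus. The cascade is a main growth signal in glioma, and it is controlled mostly by GTP loading and phosphorylation, which read counts do not measure.

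The libraries held 19630319 to 25620667 reads. Ngb itself had 13 to 28 reads in the shVec libraries and 11 to 19 in the shNgb libraries, with overlapping groups (log2 fold change -0.59, SE 0.42, edgeR adjusted p = 0.9997), so the knockdown named in the labels was not detected at this depth. Of the 8 markers listed for neural and glial cells, Nes, Vim, Sox2 and Cd44 were expressed in every library (their list summed to 5384 to 5986 CPM, read counts scaled to library size, in shVec and 5438 to 5647 CPM in shNgb), while Olig2 had 0 reads and Gfap, S100b and Fabp7 stayed at or under 0.33 CPM. Vim made up most of that sum. All 4 expressed markers had negative log2 fold changes. Those of Vim (-0.019, SE 0.070), Cd44 (-0.071, SE 0.10) and Sox2 (-0.11, SE 0.20) were smaller than their SE. Nes, an intermediate filament gene of neural progenitors, averaged 506 ± 35.3 CPM in shVec and 414 ± 28.7 in shNgb (SD, n = 3). Its groups did not overlap (log2 fold change -0.29, edgeR adjusted p = 0.9997), nor did those of 7.10% of all tested genes. Host cell markers were also present. The 8 leukocyte markers summed to 31.5 to 62.8 CPM in shVec and 41.4 to 105 CPM in shNgb. The 6 fibroblast markers summed to 356 to 485 and 517 to 813 CPM, without overlap. Among them Col1a1 averaged 155 and 281 CPM and Col1a2 90.5 and 176 CPM. Pdgfra averaged 43.3 and 57.7 CPM, Pdgfrb 96.3 and 96.9, Dcn 14.3 and 15.1 and Lum 0.341 and 2.39. The collagen genes thus made up most of the difference between these sums. The 5 endothelial markers summed to 62.9 to 68.3 and 57.5 to 69.8 CPM. The 5 skeletal muscle markers summed to 6.79 to 17.3 and 5.40 to 6.34 CPM, also without overlap. In these mixed tissues, fewer cells of a type and less RNA per cell cannot be told apart. The part of the neural and host cell markers in the values of the cascade genes was not tested.

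The 7 genes lie apart in the genome (build GRCm38, GENCODE M21). Hras (ENSMUSG00000025499) spans chromosome 7 from 141189105 to 141194005 on the minus strand and Mapk3 (ENSMUSG00000063065) the same chromosome from 126759601 to 126765819 on the plus strand. Nras (ENSMUSG00000027852) lies on chromosome 3 at 103058285 to 103067914 (plus), Araf (ENSMUSG00000001127) on chromosome X at 20797814 to 20860519 (plus) and Braf (ENSMUSG00000002413) on chromosome 6 at 39603237 to 39725463 (minus). Map2k1 (ENSMUSG00000004936) lies on chromosome 9 at 64185770 to 64253631 (minus) and Map2k2 (ENSMUSG00000035027) on chromosome 10 at 81105915 to 81133975 (plus). How reads were counted over the exons of a gene is not stated in the sources used here.

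The kinases come in pairs of related genes, so the RAF and MEK sequences were compared to see whether reads of a pair can be told apart. The longest run of identical bases between the longest coding transcripts was 14 bases for Araf and Braf. Map2k1 and Map2k2 shared a run of 56 bases, in coding exons 3 and 4 of both genes (chr9:64205181-64212631, minus strand, and chr10:81115125-81118159, plus strand, each spanning an intron). It is shown with 12 bases of each gene on either side, from the GENCODE M21 transcripts, 5′ to 3′, with the identical bases in capitals.
Map2k1: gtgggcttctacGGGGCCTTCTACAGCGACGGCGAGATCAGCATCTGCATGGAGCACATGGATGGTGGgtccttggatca
Map2k2: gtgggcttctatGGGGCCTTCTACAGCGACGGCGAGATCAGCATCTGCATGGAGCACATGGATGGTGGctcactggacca
Of the windows of 50 bases in the Map2k1 transcript, 7 also occur in Map2k2, and Araf and Braf share 0. A read inside the shared Map2k run cannot be assigned to one of these genes, and neither the read length nor how such reads were counted is stated in the sources used here. Processed pseudogenes were found for Braf (Gm18189, 90.0% identity over 1106 bases) and for Mapk3 (Gm15546, 89.7% over 827 bases, Gm5675, 87.0% over 1045 bases, and Gm7746, 89.7% over 486 bases), and each of them had 0 reads in all 6 libraries. Exons overlap genes on the opposite strand in 2 cases: Braf shares 146 exonic bases with Ndufb2, a respiratory chain gene with 173 to 368 reads per library, and Araf shares 9 with Syn1, with 33 to 107 reads. The kit does not mark strand, so reads in these overlaps cannot be told apart.

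The stretches before the start sites were also compared, because they show what the genes share beyond their place in the cascade. RefSeq start sites (GRCm38.p6) were matched for 6 of the 7 genes, Hras, Nras, Araf, Braf, Map2k1 and Map2k2, and 250 bases before each were searched on both strands. A GC box (GGGCGG), the letters bound by SP1-type factors, occurred in 5 of the 6 and in 32.7% of 32851 promoter windows of that length. A CCAAT box (CCAAT) occurred in 3 of the 6 and in 33.8% of all, and a TATA box (TATAAA) in 0 of the 6 and 12.4% of all. The cAMP response element (TGACGTCA), which also holds the shorter TGACG, occurred in Braf, at 2 places, and in 1.55% of all windows. The GC content was 48.4% in Nras, 51.2% in Araf, 59.6% in Map2k2, 62.0% in Braf, 65.6% in Hras and 68.4% in Map2k1, against a median of 52.4%. The ratio of observed to expected CpG pairs ran from 0.744 (Araf) to 1.04 (Map2k2), against a median of 0.374 over all windows. Thus the 6 windows were all richer in CpG than the median window, while Nras and Araf were not richer in GC. The windows compared were not limited to genes expressed in these tumours, so these traits are not read as particular to the cascade.

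The windows of Map2k1, with 4 GC boxes, and of the paralogues Araf, with 3 CCAAT boxes and no GC box, and Braf, with 2 cAMP response elements, show this range. The capitals mark the boxes just named, read on either strand. They lie at chr9:64253606-64253855 (minus strand), chrX:20848293-20848542 (plus strand) and chr6:39725464-39725713 (minus strand). The Araf window lies inside the gene's GENCODE span, which has a start farther upstream. The end of the Map2k1 window, from 64253606 to 64253631, also lies inside that gene's GENCODE span and holds the last of its GC boxes. A match is a description of letters and not of binding.
Map2k1: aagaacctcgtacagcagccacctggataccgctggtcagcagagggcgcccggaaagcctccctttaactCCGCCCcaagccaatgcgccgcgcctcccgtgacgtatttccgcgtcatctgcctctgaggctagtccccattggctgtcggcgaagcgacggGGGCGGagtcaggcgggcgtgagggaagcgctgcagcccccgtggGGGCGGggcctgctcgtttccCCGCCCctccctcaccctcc
Araf: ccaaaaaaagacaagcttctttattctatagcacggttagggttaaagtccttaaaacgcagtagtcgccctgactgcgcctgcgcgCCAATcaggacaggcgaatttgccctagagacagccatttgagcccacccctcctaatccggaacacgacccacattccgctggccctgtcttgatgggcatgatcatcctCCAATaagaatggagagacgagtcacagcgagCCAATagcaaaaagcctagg
Braf: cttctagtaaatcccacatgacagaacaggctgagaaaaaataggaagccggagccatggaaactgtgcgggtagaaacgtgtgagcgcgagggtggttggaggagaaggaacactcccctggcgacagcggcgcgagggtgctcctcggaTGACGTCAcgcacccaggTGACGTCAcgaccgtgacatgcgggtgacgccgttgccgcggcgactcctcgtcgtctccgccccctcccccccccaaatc

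All 7 genes were expressed in every tumour, and their levels per length differed by more than an order of magnitude from Mapk3 to Braf. In the deposited FPKM values, which divide reads by the length of all annotated exons of a gene, Mapk3 stood at 59.3 ± 4.44 (SD, n = 6 tumours). Nras stood at 42.2 ± 1.34, Map2k1 at 36.6 ± 1.19, Map2k2 at 19.5 ± 1.15, Hras at 18.5 ± 1.47, Araf at 10.2 ± 0.735 and Braf at 4.85 ± 0.331. Of the 15203 genes tested, 94.2% had a lower mean FPKM than Mapk3 and 47.4% a lower one than Braf. In this order the ranges over the 6 tumours overlapped for Map2k2 and Hras alone (Map2k2 was the higher of the pair in 4 of 6 tumours), and every other neighbouring pair was apart in all 6.

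The order depended on the length by which reads were divided. The exon union behind the FPKM values was 2.36 times the longest coding transcript for Map2k2 (5663 against 2405 bases) and 2.29 times for Araf (6541 against 2854), but 1.19 to 1.42 times for the other 5 genes. Per longest coding transcript, on the same scale, Mapk3 stood at 74.4 ± 5.57, Map2k1 at 50.9 ± 1.66, Nras at 50.3 ± 1.6, Map2k2 at 46.0 ± 2.71, Hras at 24.4 ± 1.94, Araf at 23.5 ± 1.68 and Braf at 6.91 ± 0.471 (SD, n = 6). Mapk3 stayed highest and Braf lowest, Map2k1 and Nras overlapped, as did Nras and Map2k2, and Hras and Araf. This length model was chosen after the data were seen.

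**Figure D1:**
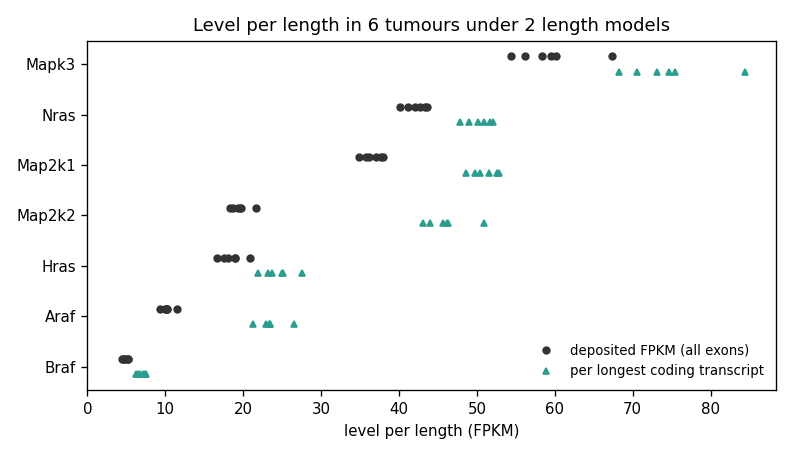
Level per length of each gene in the 6 tumours, with the deposited FPKM (circles, length of all exons) and the same values per longest coding transcript (triangles) on the x axis. Mapk3 lies highest (54.4 to 67.3 FPKM) and Braf lowest (4.42 to 5.24 FPKM), and the ratio between the 2 length models is greatest for Map2k2 (2.36) and Araf (2.29).

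The comparison of shNgb with shVec tumours asks whether the cascade's transcripts differ between these label groups. No member of the cascade passed the test. In edgeR's quasi-likelihood test, 0 of the 7 had an adjusted p under 0.05, as did 0 of all 15203 genes tested (0% called), and 0 of the 7 had an unadjusted p under 0.05, against 2.58% of all genes (392, with 1.35% higher and 1.22% lower in shNgb). Over all genes, limma-voom called 0 and DESeq2 5, none of them a member. The log2 fold changes (shNgb minus shVec) were positive for 3 members and negative for 4 and ran from -0.072 to 0.10, with a median of -0.043 against 0.0026 for all tested genes. The 95% intervals of the 7 genes ran from a fold of 0.829 at the lowest (Braf) to 1.25 at the highest (Hras), and each edgeR adjusted p was 0.9997. Changes as large as 1.5-fold lay outside each interval, while smaller ones within it are compatible with these data. The intervals are not limits of detection after adjustment over all genes.

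**Figure D2:**
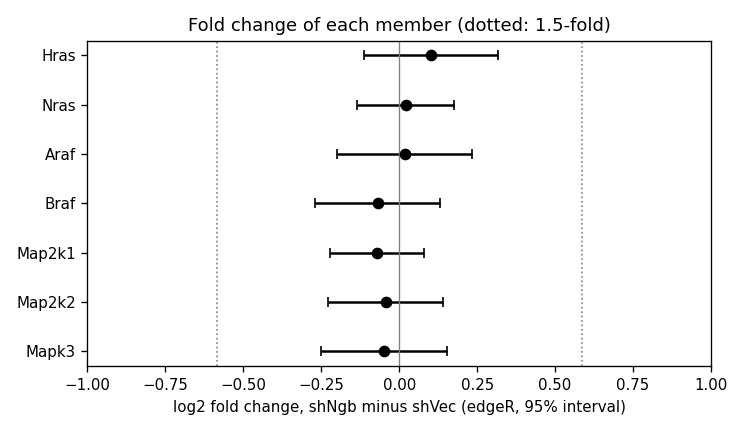
Log2 fold change of each gene, shNgb minus shVec, with its 95% interval from edgeR (points and bars, 3 tumours per group) and dotted lines at 1.5-fold. Every interval includes 0 and lies inside the dotted lines, from -0.27 (Braf, lower end) to 0.32 (Hras, upper end).

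Of the RAS genes, Hras encodes a GTPase that is palmitoylated and cycles between the Golgi and the plasma membrane. It stood at 67.4, 71.4 and 62.3 CPM in shVec replicates 1, 2 and 3 and at 65.7, 71.4 and 78.6 CPM in shNgb replicates 1, 2 and 3. The groups overlapped, and shNgb replicate 3 was the highest tumour. The means were 67.0 ± 4.56 and 71.9 ± 6.50 CPM (SD, n = 3 each), with a log2 fold change of 0.10 (SE 0.095, edgeR adjusted p = 0.9997). Leaving out shNgb replicate 3 gave 0.030.

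Nras, the most read member, encodes a close relative of Hras with the same effectors. It stood at 215, 234 and 225 CPM in the shVec tumours and at 219.8, 234 and 229 CPM in the shNgb tumours. The 2 groups covered nearly the same range, with means of 225 ± 9.57 and 228 ± 7.24 CPM (SD, n = 3) and a log2 fold change of 0.020 (SE 0.069). Its 95% interval ran from a fold of 0.91 to 1.13.

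Of the RAF genes, Araf encodes the RAF kinase with the weakest activity toward MEK. It stood at 67.1, 67.1 and 66.7 CPM in shVec, an SD of 0.228 CPM, and at 65.8, 76.5 and 61.2 CPM in shNgb. The shNgb tumours lay on both sides of the shVec tumours, with replicate 2 highest and replicate 3 lowest. The log2 fold change was 0.018 (SE 0.096), and leaving out shNgb replicate 2 turned it to -0.077. An SD as small as that of the shVec tumours is under the counting error of these libraries, which is 2.76% at the fewest reads of Araf.

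Braf encodes the RAF kinase with the highest basal activity. It stood at 65.3, 69.4 and 73.0 CPM in the shVec tumours and at 71.8, 64.3 and 61.9 CPM in shNgb. The lowest 2 tumours were of the shNgb group, and shNgb replicate 1 lay between the shVec values. The means were 69.2 ± 3.82 and 66.0 ± 5.22 CPM (SD, n = 3), with a log2 fold change of -0.069 (SE 0.089).

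Of the MEK genes, Map2k1 was the 1 member whose groups did not overlap. It stood at 126, 129 and 129 CPM in the shVec tumours and at 119, 124 and 122 CPM in the shNgb tumours. All 3 shNgb values lay below the lowest shVec value, by means of 122 ± 2.82 against 128 ± 1.71 CPM (SD, n = 3). The difference was small, at a fold of 0.951 (95% interval 0.857 to 1.06, log2 fold change -0.072, SE 0.067, edgeR unadjusted p = 0.307, adjusted p = 0.9997). The two-sided exact permutation p on log2 CPM was 0.1, the smallest that 3 against 3 can give. Groups did not overlap in 7.10% of all tested genes, 3.43% with shNgb lower and 3.67% with shNgb higher, and nothing is read from 1 of 7 members. Map2k1 also varied little: its SD within groups was 0.027 on the log2 scale, and 0.322% of tested genes had a lower one. An SD this small is about the counting error, which is 2.02% at the fewest reads of Map2k1. The log2 fold change was negative under each alternative that was run, between -0.086 and -0.054.

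Map2k2 encodes MEK2, the close relative of MEK1 that phosphorylates the same ERK sites. It stood at 123, 104 and 112 CPM in the shVec tumours and at 110, 112 and 107 CPM in shNgb, so that both the highest and the lowest tumour were shVec. The log2 fold change was -0.043 (SE 0.081). Leaving out shVec replicate 1, the highest tumour, gave 0.018.

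Mapk3 encodes ERK1, one of the pair of kinases at the end of the cascade. It stood at 152, 124 and 135 CPM in the shVec tumours and at 132, 128 and 137 CPM in shNgb. As for Map2k2, shVec replicate 1 was highest and shVec replicate 2 lowest, and the shNgb tumours lay between them. The log2 fold change was -0.048 (SE 0.089), and it was 0.033 without shVec replicate 1.

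**Figure D3:**
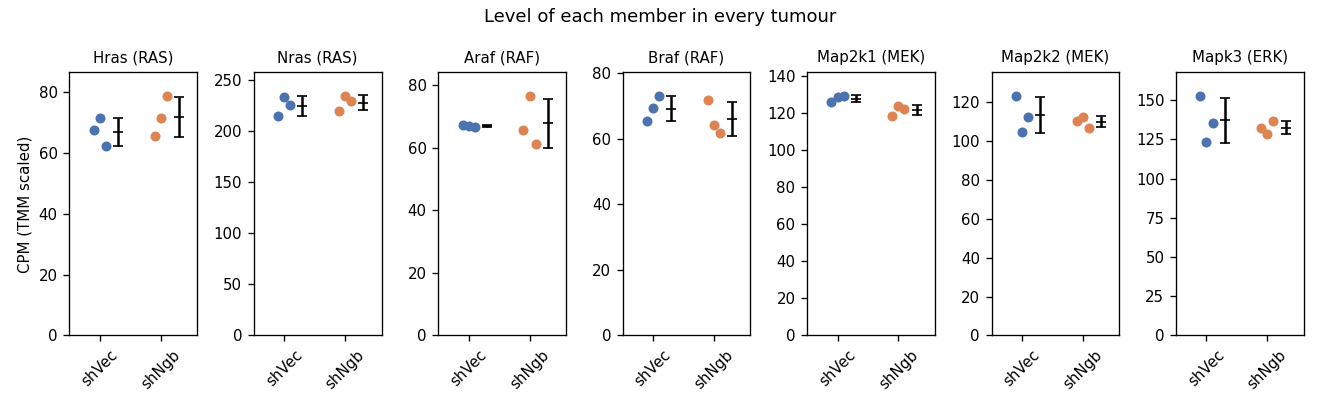
Level of each gene in CPM (y axis, from 0, TMM scaled) in the 3 shVec and 3 shNgb tumours (points, replicates 1 to 3 from left to right), with the mean and SD beside them. The groups overlap in 6 of 7 genes, and in Map2k1 the 3 shNgb tumours (119 to 124 CPM) lie under the 3 shVec tumours (126 to 129 CPM).

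Across the 6 tumours the coefficient of variation of CPM ran from 3.21% (Map2k1) to 8.19% (Hras). The SD within groups on the log2 scale was lower than the median gene's in all 7, with 0.322% (Map2k1) to 28.5% (Araf) of tested genes below them. The tested genes include some with far fewer reads and so a larger counting error, such as Ngb with 11 to 28 reads. The members were not compared with genes of like read counts. Summed per tier in FPKM, the RAS genes stood at 59.8 ± 2.46 in shVec and 61.5 ± 2.53 in shNgb, the RAF genes at 15.2 ± 0.230 and 15.004 ± 1.23, the MEK genes at 57.4 ± 1.31 and 54.8 ± 0.827 and Mapk3 at 60.4 ± 6.48 and 58.2 ± 1.95 (SD, n = 3). The MEK sums did not overlap in FPKM (56.0 to 58.6 in shVec and 54.2 to 55.8 in shNgb), and those of the other tiers did. Summed per longest coding transcript or in CPM, the MEK genes did overlap between the groups, so nothing is read from their separation in FPKM. Among single tested genes, 7.10% had groups that did not overlap. The tier sums depend on the length model, and they cover the members alone and not the other RAS, RAF and ERK genes.

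The ratio of paralogues within a library is free of the scaling between libraries, and it was compared for the 3 pairs. Hras to Nras stood at 0.448, 0.436 and 0.395 in FPKM in the shVec tumours and at 0.427, 0.436 and 0.489 in the shNgb tumours. Araf to Braf stood at 2.18, 2.05 and 1.94 in shVec and at 1.94, 2.52 and 2.10 in shNgb. Map2k1 to Map2k2 stood at 1.72, 2.06 and 1.93 in shVec and at 1.80, 1.85 and 1.92 in shNgb. The groups overlapped in each ratio. The log2 differences (shNgb minus shVec) were 0.080 for Hras to Nras, 0.082 for Araf to Braf and -0.032 for Map2k1 to Map2k2, with two-sided exact permutation p-values of 0.5, 0.6 and 0.8 (0.8 each when adjusted over the 3 ratios, where 0.1 is the smallest raw p possible). These differences do not depend on the length model, but the ratios do: per longest coding transcript, Map2k1 to Map2k2 averaged 1.11 ± 0.071 rather than 1.88 ± 0.12, and Araf to Braf 3.41 ± 0.349 rather than 2.12 ± 0.217 (SD, n = 6). Hras to Nras averaged 0.438 ± 0.031 in FPKM and 0.485 ± 0.034 per longest coding transcript. Per length, Nras, Araf and Map2k1 were the higher of their pairs in all 6 tumours under both length models, by as little as 1.01 for Map2k1 in 1 tumour. In reads, not divided by length, the ratio was 0.307 ± 0.022 for Hras to Nras, 1.001 ± 0.10 for Araf to Braf and 1.12 ± 0.072 for Map2k1 to Map2k2 (SD, n = 6), so the higher level of Araf comes from dividing by the greater annotated length of Braf.

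**Figure D4:**
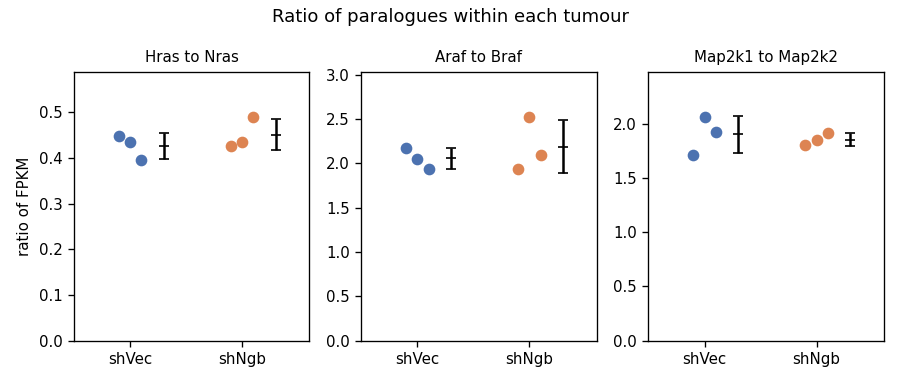
Ratio of deposited FPKM within each tumour for the 3 pairs of paralogues (y axes from 0), with 3 shVec and 3 shNgb tumours as points and the mean and SD beside them. The groups overlap in each pair, and shNgb replicate 2 has the highest Araf to Braf ratio (2.52).

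The patterns most like each member over the 6 libraries were sought among 9055 named genes of at least 10 CPM. By Pearson correlation of log2 CPM (n = 6 libraries), these were Procr for Hras (0.991), Cyld for Nras (0.991), Exog for Araf (0.997), Phf20l1 for Braf (0.988), Chac1 for Map2k1 (0.988), Mbtps1 for Map2k2 (0.998) and Wdr25 for Mapk3 (0.991). With 6 points such values are common: 33 (Map2k1) to 173 (Map2k2) genes exceeded 0.9. They describe these libraries, which share their depth and scaling across genes, and no more. Chac1, a glutathione-degrading enzyme, was at 57.8, 66.1 and 71.8 CPM in the shVec tumours and at 35.0, 51.5 and 40.9 CPM in shNgb, a wider range than that of Map2k1.

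The rest of the pathway was described by 9 lists with 97 genes, 88 of which were tested. Of these 88, 0 passed the edgeR test in either direction. An unadjusted p under 0.05 was reached by 5 (5.68%, against 2.58% of all tested genes), and the groups did not overlap in 9, against 7.10% of all tested genes. The 5 were Rasgrp1, Rasgrp3, Zdhhc9, Dusp4 and Mapk6, each with an edgeR adjusted p of 0.9997. List medians ran from -0.13 to 0.055 on the log2 scale, against 0.0026 for all tested genes.

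Upstream of RAS, the exchange factors load it with GTP. Of 8 such genes 5 were tested, with 2 positive and 3 negative log2 fold changes. Sos1, the ubiquitous exchange factor, stood at 81.3 ± 2.10 CPM over the shVec tumours and 74.5 ± 2.80 in shNgb (SD, n = 3; log2 fold change -0.13, SE 0.074), without overlap. The lymphoid exchange factor Rasgrp1 stood at 1.32 ± 0.165 and 2.67 ± 1.33 CPM (1.02, SE 0.41), and Rasgrp3 at 3.64 ± 0.378 and 2.34 ± 0.363 CPM (-0.63, SE 0.24), the latter without overlap. Rasgrp1 is known from T cells, and the leukocyte markers given above overlapped between groups but reached higher sums in shNgb, with all 6 tested markers positive at a median log2 fold change of 0.68. Their part in the Rasgrp1 value was not tested.

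The GTPase-activating proteins, which switch RAS off, had 9 of 10 genes tested, with 4 positive and 5 negative and a median of -0.0076. Nf1, which encodes neurofibromin, stood at 111 ± 9.41 and 100.2 ± 10.4 CPM, Rasa3 at 234 ± 28.4 and 213 ± 2.47 CPM and Rasal3 at 1.71 ± 0.903 and 2.18 ± 0.688 CPM (SD, n = 3), each with overlapping groups. Adaptors between receptors and exchange factors had 9 of 11 tested, 3 positive and 6 negative, at a median of -0.026. Frs3 stood at 6.09 ± 1.58 and 5.11 ± 1.19 CPM, and the SH2 and SH3 adaptors Crk and Crkl at 301 ± 14.2 and 308 ± 16.6 CPM and at 142 ± 6.25 and 137 ± 11.8 CPM.

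The list of genes for the lipid modification, delivery and turnover of RAS had 9 of 9 tested, 5 positive and 4 negative, at a median of 0.055, which is the value of Lztr1, an adaptor of a ubiquitin ligase for RAS. Zdhhc9, a subunit of the palmitoyltransferase of Hras and Nras, averaged 32.3 ± 1.53 CPM over the shVec tumours and 27.2 ± 2.15 over the shNgb tumours, without overlap (log2 fold change -0.25, SE 0.10). Pde6d, a carrier of farnesylated proteins, stood at 35.4 ± 1.70 and 39.5 ± 2.11 CPM, also without overlap, and Lypla1, a thioesterase that can remove palmitate, at 35.3 ± 1.58 and 39.0 ± 3.44 CPM. The 6 further RAS, RAF and ERK family genes were all tested, with 2 positive and 4 negative log2 fold changes between -0.057 and 0.041. Among them Rras stood at 41.6 ± 2.89 and 40.0 ± 3.59 CPM and Mras at 75.5 ± 9.80 and 72.6 ± 6.05 CPM.

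Scaffolds, chaperones and inhibitors of RAF, MEK and ERK had 12 of 13 tested, 7 positive and 5 negative, at a median of 0.045. Iqgap1, a scaffold that binds MEK and ERK, stood at 424 ± 12.6 and 391 ± 29.1 CPM, and Ywhab, a 14-3-3 protein that binds RAF, at 208 ± 5.96 and 220.0 ± 6.92 CPM, both without overlap. Pea15a, which holds ERK in the cytoplasm, stood at 57.8 ± 4.81 and 65.0 ± 10.6 CPM. ERK substrates had 10 of 10 tested, 7 positive and 3 negative, at a median of 0.041, with Mknk2, a kinase of eIF4E, at 97.4 ± 10.2 and 107 ± 2.52 CPM, Rps6ka1, which encodes RSK1, at 70.8 ± 9.43 and 75.5 ± 5.50 CPM, and the transcription factor Elk1 at 37.7 ± 2.08 and 39.7 ± 3.22 CPM.

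The list of ERK output and feedback genes had 16 of 16 tested, 5 positive and 11 negative, at a median of -0.050. Leaving out shNgb replicate 2 moved this median to -0.20, and leaving out shVec replicate 2 moved it to 0.0040, so that its sign rested on the latter tumour. Dusp4, a nuclear phosphatase of ERK, averaged 56.9 ± 9.25 CPM over the shVec tumours and 42.5 ± 5.08 over the shNgb tumours, without overlap (log2 fold change -0.42, SE 0.14). Spry2, a feedback inhibitor of receptor signalling, stood at 25.6 ± 2.61 and 19.7 ± 5.45 CPM and the ETS factor Etv1 at 22.7 ± 2.32 and 28.9 ± 7.89 CPM, both with overlapping groups. The parallel MAPK cascades had 12 of 14 tested, 6 positive and 6 negative, at a median of -0.020. Mapk6, which encodes the atypical kinase ERK3, stood at 553 ± 9.02 and 470.5 ± 21.01 CPM, without overlap (log2 fold change -0.23, SE 0.066). Mapk9, which encodes JNK2, stood at 75.7 ± 4.55 and 69.8 ± 2.67 CPM and Mapk7, which encodes ERK5, at 38.02 ± 1.98 and 41.5 ± 3.22 CPM.

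**Figure D5:**
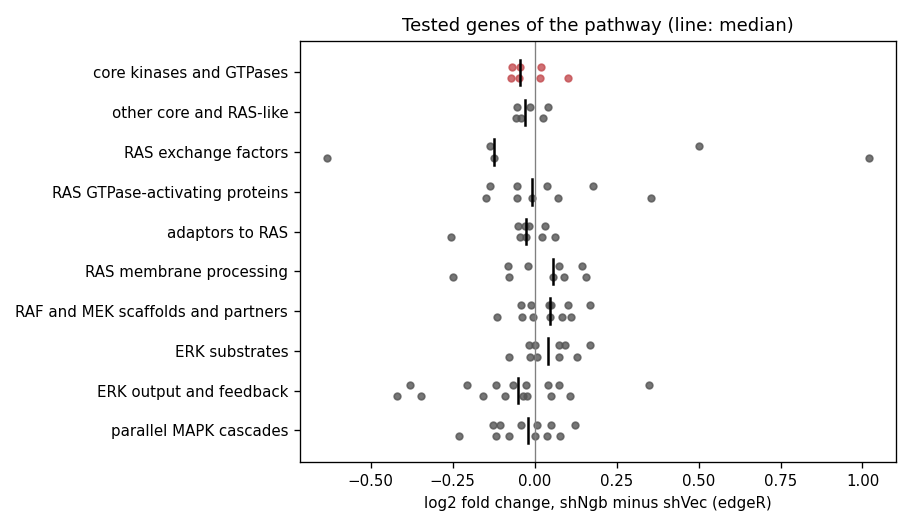
Log2 fold change of each tested gene (points), shNgb minus shVec, for the 7 core genes and the 9 pathway lists (y axis), with the median of each list as a line. The 7 core genes lie between -0.072 and 0.10, and the points farthest out are Rasgrp1 (1.02) and Rasgrp3 (-0.63).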

How the data were processed

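Per the labels' protocols, RNA of 6 tumours was extracted with Trizol and made into libraries with the Illumina TruSeq RNA kit. Per the submitters' processing notes, which give no roles, Bowtie 0.12.2, mm8 and mm10 were involved. The authors deposited raw read counts per gene and FPKM values. In 11113 genes with over 50 reads in every library the FPKM equalled reads divided by a library and a gene factor, and in 95.5% of these the gene factor was within 1% of the exon union of GENCODE M21.

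The counts were tested by edgeR 4.0.16 under R 4.3.3 (default filter, 15203 genes, TMM, robust quasi-likelihood F-test, Benjamini-Hochberg over all genes, threshold 0.05), on 3 against 3 tumours, and the pipeline was tested on simulated data. Alternatives were RLE and upper quartile scaling, other filters, DESeq2 1.42.0, limma-voom (limma 3.58.1), limma on log2(FPKM + 1), a replicate block and leaving out each tumour. Copies were sought with blastn 2.17.0 (85% identity over 250 bases). Named are the members, Ngb, some cell type markers and up to 3 genes of smallest p per list with at least 1 CPM. Members and lists were chosen with earlier results of these data known. Some further core genes of the cascade and the sequence comparison of 1 gene pair are not reported here.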

Additional observations from a re-analysis of the deposited data

How the results depend on the processing

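Of 15203 genes tested, 0 were called by edgeR, and 0 in each fit that left out 1 tumour. Without a filter 3 were called, by DESeq2 5 and with the replicate block 1. Numbers were not shown to pair tumours (same-number correlations of deviations 0.257, -0.145 and -0.099), so the block is not read as pairing. No member passed under any alternative, the smallest adjusted p being 0.963. Scaling, filters, tools, FPKM and the block left each member's direction as it was. Leaving out 1 tumour gave log2 fold changes of -0.013 to 0.050 for Nras, -0.077 to 0.084 for Araf, -0.098 to 0.018 for Map2k2 and -0.12 to 0.033 for Mapk3, all of which changed sign. The range was 0.030 to 0.16 for Hras, -0.14 to -0.027 for Braf and -0.086 to -0.056 for Map2k1. The log2 differences of the ratios ranged from -0.025 to 0.16 (Araf to Braf), -0.10 to 0.028 (Map2k1 to Map2k2) and 0.019 to 0.12 (Hras to Nras). List medians ranged from -0.068 to 0.017 (the 7 members), -0.019 to 0.0030 (other RAS, RAF and ERK genes), -0.095 to 0.045 (GTPase-activating proteins) and -0.011 to 0.066 (membrane processing). Further ranges were -0.010 to 0.065 (scaffolds), -0.20 to 0.0040 (ERK output and feedback), -0.0996 to 0.013 (adaptors) and -0.070 to 0.0022 (parallel MAPK cascades). The last were 0.011 to 0.092 (ERK substrates) and -0.16 to -0.078 (exchange factors), so 8 of these 10 medians changed sign. In the block, the Map2k1 value was -0.072. The causes were not tested. With 3 tumours a group, changes inside the intervals given are compatible with these data.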
